A study of Homo sapiens with 6 samples.

Results

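Accessible chromatin was described at 9 genes of the TGF-β pathway in HLF cells, a human line established from a liver cancer: TGFB1, TGFBR1, TGFBR2, SMAD2, SMAD3, SMAD4, SMAD7, SKIL and TGFBI. A site belonged to a gene when its strongest summit lay within 1 kb of any annotated transcription start of the gene, in the gene body or within 20 kb of it (GENCODE release 44, hg38). This gave 126 of the 166021 sites found in the 6 ATAC-seq libraries, and none of the 126 belonged to more than 1 of the genes. At the limit of 20 kb, the last site inside lay 19.3 kb from the SMAD3 gene and the first outside lay 20.3 kb from TGFB1, each with a peak in all 6 libraries. ATAC-seq marks open chromatin by the Tn5 transposase, which inserts adapters into DNA that is not wrapped in nucleosomes. The cells had received 5 μM SNDX-5613 (revumenib), which blocks the binding of menin to the histone methyltransferase MLL1, or DMSO alone, with 3 libraries in each group and the same batch for all 6. The labels give 24 h for both groups while the study's account of this assay gives a longer treatment, so that the duration is uncertain. HLF is a single line. By the study's account a replicate was a dish of cells split between treatment and control, so that same-numbered libraries of the groups share a dish if the numbers follow the dishes, and the replicates of a group are separate dishes of the same line.

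TGF-β is secreted as a latent ligand and, once released, is bound by the type II receptor, which phosphorylates the type I receptor. The type I receptor phosphorylates SMAD2 and SMAD3, which join SMAD4, enter the nucleus and act at target genes together with other DNA-binding factors, and SMAD7 and SKIL are induced as inhibitors that close the loop. In hepatocytes the pathway arrests growth, while in liver tumour cells it is also tied to a mesenchymal state and to matrix production.

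The libraries held 40568 to 113675 called regions. SNDX-5613 replicate 3 was much shallower than the other 5. The genome-wide background solved from its peak list was 0.211 fragments, 16.2% of the median of the other 5, and its lowest called summit at that background held 3 fragments, against 6 or 7 in the deeper libraries. A promoter region was present in all 6 libraries at 5 of 5 mesenchymal markers (such as VIM) and 4 of 4 epithelial markers, at 0 of 9 hepatocyte markers and at 0 of 5 blood and endothelial markers. No library had a promoter region at 5 of the hepatocyte genes, ALB and HNF4A among them, while APOB and TTR had one in 5 libraries and SERPINA1 and FOXA2 in 2. Of the blood and endothelial genes, CD68 had a promoter region in 5 libraries.

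The sequence under the summits is shown first for the sites on which the results turn. Each line is the hg38 reference, 5′ to 3′ on the strand of the named gene, and spans 100 bases on each side of the summit except at TGFBR2, where it ends at the base before the main start. Capitals mark matches, on either strand, to CCAAT (the core bound by NF-Y), GTCTAGAC (the palindromic SMAD element), CAGACA (a longer single SMAD box), TGANTCA (AP-1) or CATTCC (the core bound by TEAD factors). No matches overlapped in these windows. The upstream SMAD7 site is shown because it is the site nearest to the main start of that gene and is the only one of the 126 whose window held the SMAD palindrome.
SMAD7, 1.23 kb upstream of its main start (chr18:48952097-48952297, minus strand): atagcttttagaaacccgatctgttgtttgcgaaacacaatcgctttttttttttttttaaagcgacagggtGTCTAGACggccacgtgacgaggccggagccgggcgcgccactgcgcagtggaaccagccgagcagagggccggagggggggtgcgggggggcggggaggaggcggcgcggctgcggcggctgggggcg
TGFBR2 promoter (chr3:30606449-30606600, plus strand): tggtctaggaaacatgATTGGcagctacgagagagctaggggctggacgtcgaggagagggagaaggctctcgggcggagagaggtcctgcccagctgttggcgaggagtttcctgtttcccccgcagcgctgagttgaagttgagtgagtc
TGFB1 promoter (chr19:41353980-41354180, minus strand): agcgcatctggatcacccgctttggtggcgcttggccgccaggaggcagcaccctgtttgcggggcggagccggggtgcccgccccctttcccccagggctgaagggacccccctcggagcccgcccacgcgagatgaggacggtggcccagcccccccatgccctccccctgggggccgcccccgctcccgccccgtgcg
TGFBI, 24.8 kb downstream of its main start (chr5:136053696-136053896, plus strand): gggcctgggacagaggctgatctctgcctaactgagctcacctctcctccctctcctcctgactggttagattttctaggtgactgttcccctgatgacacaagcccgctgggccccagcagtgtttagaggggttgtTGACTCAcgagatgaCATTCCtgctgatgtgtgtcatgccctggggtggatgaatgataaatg
TGFBI, 11.9 kb upstream of its main start (chr5:136016948-136017148, plus strand): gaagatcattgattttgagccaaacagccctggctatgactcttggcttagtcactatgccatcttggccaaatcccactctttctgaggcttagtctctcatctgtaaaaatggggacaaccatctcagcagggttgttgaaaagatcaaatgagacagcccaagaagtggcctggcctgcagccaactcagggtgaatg
SMAD3, intron, 80.9 kb downstream of its main start (chr15:67146363-67146563, plus strand): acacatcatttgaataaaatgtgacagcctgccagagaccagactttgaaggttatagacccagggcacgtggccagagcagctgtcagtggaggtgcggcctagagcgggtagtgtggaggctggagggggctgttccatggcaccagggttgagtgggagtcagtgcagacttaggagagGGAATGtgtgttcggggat

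The windows of TGFBR2, TGFB1 and TGFBI at annotated starts come from the strongest promoter site of each gene, the SMAD7 window from its nearest upstream site, the TGFBI upstream window from the site with the lowest p in the comparison, and the SMAD3 intronic window from a site that had a peak in every DMSO library and in no SNDX-5613 library. The TGFB1 window, with 76.6% G or C, matched none of the motifs. The TGFBI window 24.8 kb into the gene held a match to AP-1 and a match to CATTCC. The full TGFBR2 window also matched AP-1, at a position not printed in whole because the line ends at the main start, and it is counted below. Of each window shown, 3 stretches of 25 bases were counted in the genome, and each occurred 1 time.

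Over all 126 sites, GTCTAGAC was found at 1 (0.794%), against 0.158% of the 166021 sites. CAGACA was found at 13 (10.3%, against 16.2%), TGANTCA at 29 (23.02%, against 15.5%), CATTCC at 26 (20.6%, against 15.5%) and CCAAT at 26 (20.6%, against 24.3%). These are counts of letters within 100 bases of a summit and do not show that a factor was bound.

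The 9 genes differed widely in how many sites they held, flanks included. SMAD3, the receptor-activated SMAD that binds DNA, had 40 sites and a gene body of 131 kb. TGFBI, which encodes a matrix protein secreted in response to TGF-β, had 21 sites and a body of 34.8 kb. SMAD7 had 19 and a body of 31.1 kb, and TGFB1 14 and a body of 52.3 kb. SKIL, a repressor of SMAD complexes, had 8. The receptors TGFBR2 and TGFBR1 had 9 and 5 sites, SMAD4 had 6, and SMAD2 had 4 and a body of 122 kb. Per 10 kb of body and flanks, this came to 2.81 sites at TGFBI, 2.67 at SMAD7 and 2.33 at SMAD3, and to 0.247 at SMAD2. Of the 126 sites, 28 were at promoters, 52 in introns, 2 in exons, 20 in upstream and 24 in downstream flanks. A peak was present in all 6 libraries at 35 sites (27.8%, against 20.1% of all 166021 sites), in the 5 deeper libraries alone at 25, in only 1 library at 32 (25.4%, against 36.2%) and in other combinations at 34. Among promoter sites, 15 of 28 (53.6%) had a peak in all 6 libraries, against 46.6% of all promoter sites in the series. Outside promoters this held for 20 of 98 (20.4%, against 13.9%). These shares are not strictly alike. A pathway site counted as a promoter only by starts of its own gene, a site of the series by any protein-coding or long noncoding RNA gene start. Of the 126 sites, 10 lay within 1 kb of the start of another gene. Some of them, such as sites 10.3 kb upstream and 43.7 kb downstream of the TGFB1 start, counted as outside promoters with a peak in all 6 libraries.

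**Figure D1:**
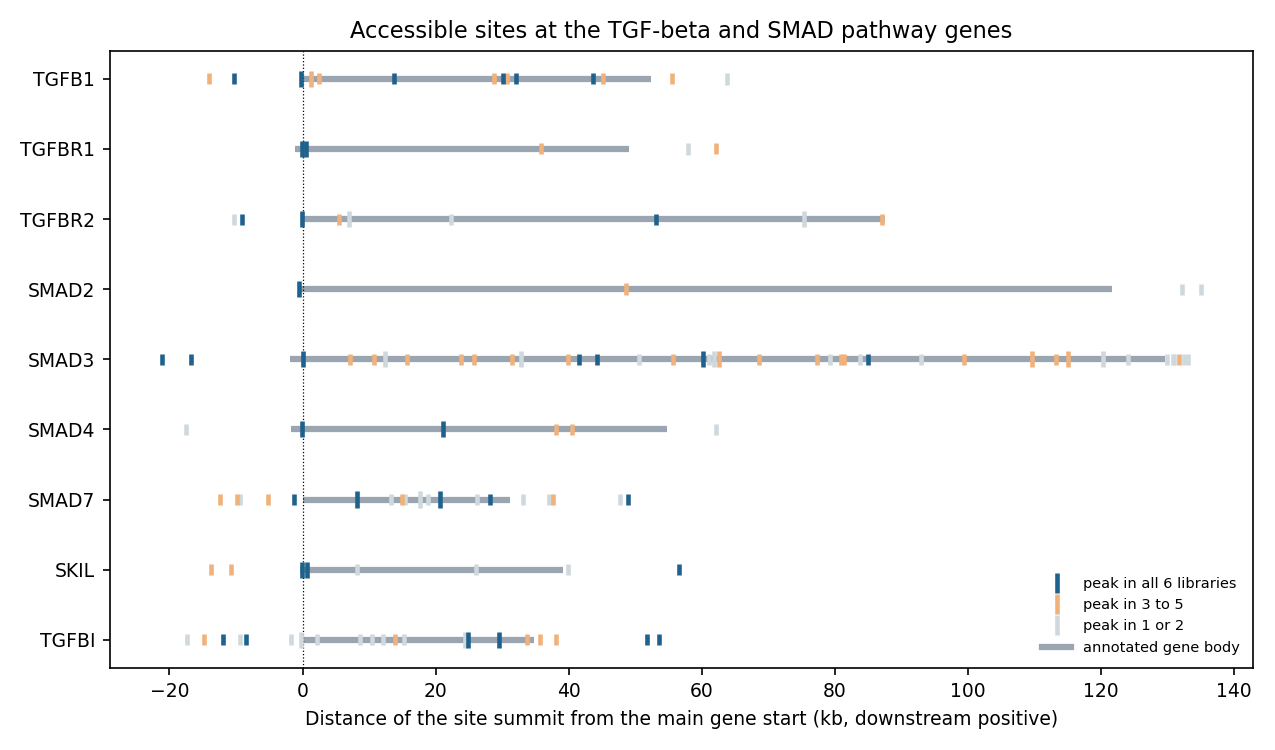
Position of the 126 sites at the 9 genes. The x axis is the distance of each summit from the main start of the gene in kb, along its direction of transcription, grey bars are annotated gene bodies, colours give the number of libraries with a peak and taller ticks mark promoter sites. SMAD3 carries 40 sites spread over its body and flanks, SMAD2 only 4.

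The ligand gene TGFB1 was open at its main start. The site there was also within 1 kb of an annotated start of TMEM91, so its signal cannot be assigned to TGFB1 alone. The TGFB1 promoter site (chr19:41353474-41354246) had summit pileups, taken here as the number of fragments stacked at the summit, of 146, 195 and 179 under DMSO. Under SNDX-5613 they were 153, 144 and 21, where the value of 21 is that of the shallow library. The strongest site outside promoters over all 9 genes lay 10.3 kb upstream of TGFB1 (chr19:41363742-41364521), with pileups of 190, 246 and 212 under DMSO and 228, 236 and 30 under SNDX-5613. That site was also within 1 kb of annotated starts of B9D2 and TMEM91. The annotation puts a long transcript under TGFB1 that runs into neighbouring genes, and only 3 of the 14 TGFB1 sites lay within its main (MANE Select) transcript, while 5 lay within 1 kb of the start of another gene. Another of these, 43.7 kb downstream of the TGFB1 start and at a start of CCDC97, had a mean percentile over the 6 libraries of 65.2, against 88.2 for the site above and 65.6 for a site 48.8 kb downstream of the SMAD7 start, with pileups of 92, 103 and 129 under DMSO and 110, 110 and 22 under SNDX-5613.

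Both receptor genes had an open promoter. At TGFBR1, the type I receptor, the site at the main start (chr9:99104543-99105179) had pileups of 149, 179 and 161 under DMSO and 165, 166 and 25 under SNDX-5613. At TGFBR2, the type II receptor that binds the ligand, the site (chr3:30606294-30607374) had pileups of 116, 128 and 136 and of 149, 138 and 25. The sites elsewhere in TGFBR1 were weak or absent in several libraries, and only its 2 promoter sites had a peak in all 6. TGFBR2 also had an intronic site 53.1 kb into the gene with a peak in every library, at pileups of 30, 34 and 40 under DMSO and 42, 52 and 6 under SNDX-5613, where both deeper SNDX-5613 libraries were above the DMSO range.

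The SMAD genes that carry the signal were open at their main starts in every library. The promoter pileups were 152, 173 and 175 under DMSO and 169, 158 and 22 under SNDX-5613 at SMAD2, which had no other site with a peak in all 6 libraries. At SMAD4, the shared partner, they were 98, 143 and 139 and 120, 138 and 23. At SMAD3 they were 90, 126 and 143 and 110, 143 and 22. The SMAD4 and SMAD3 promoter sites were each also within 1 kb of a start of a gene given only by its identifier (ENSG00000289868 and ENSG00000259347). SMAD3, with the longest body, had the most intronic sites of the 9 genes. Of its 40 sites, 22 were intronic, 9 lay at annotated starts and 6 in the downstream flank, and 16 had a peak in all 5 deeper libraries. The share of intronic sites was not particular to SMAD3, with 8 of 14 at TGFB1. The intronic site 41.5 kb into SMAD3 (chr15:67106836-67107709) reached pileups of 100, 132 and 132 under DMSO and 115, 89 and 15 under SNDX-5613. Its DMSO pileups were in the range of the gene's own promoter, while those of SNDX-5613 replicates 2 and 3 were below the promoter's in the same libraries. Further along the gene, an alternative start at 60.1 kb had pileups of 63, 100 and 84 under DMSO and 71, 75 and 13 under SNDX-5613, and an intronic site at 85.0 kb had 78, 90 and 91 and 99, 91 and 12. Both had a peak in all 6 libraries, and at both the ranges of the deeper libraries overlapped between the groups.

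SKIL encodes SnoN, which holds SMAD complexes at target genes in a repressed state until TGF-β signals its breakdown. Its promoter site (chr3:170356676-170357895) had pileups of 125, 167 and 126 under DMSO and 141, 145 and 22 under SNDX-5613. Apart from the sites at its starts, SKIL had a peak in all 6 libraries at 1 site only, 56.6 kb downstream of the main start and beyond the gene, where pileups were low at 11, 14 and 29 and at 20, 21 and 5. No peak inside the SKIL body away from its starts was found in more than 1 library.

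SMAD7 and TGFBI differed from the other genes in where their peaks lay. SMAD7, which blocks the type I receptor, had no site with its strongest summit within 1 kb of its main start. Its nearest site (chr18:48951475-48953007), whose sequence with the SMAD palindrome is given above, began 510 bases upstream of that start, with its summit 1.23 kb upstream and pileups of 99, 106 and 106 under DMSO and 85, 91 and 19 under SNDX-5613. The site spanned 1533 bases. The strongest promoter site of SMAD7 belonged to an alternative start 8.17 kb downstream (chr18:48942571-48943264), with pileups of 104, 110 and 123 and of 118, 123 and 21. A second alternative start, 20.7 kb downstream, had pileups of 81, 99 and 109 and of 95, 95 and 12. At TGFBI, the main start had a peak in DMSO replicate 2 alone, with a pileup of 6, which is the lowest pileup called in that library at its background. The strongest TGFBI promoter site lay 24.8 kb downstream, at an alternative start inside the gene (chr5:136053551-136054141), with pileups of 133, 184 and 187 under DMSO and 155, 156 and 24 under SNDX-5613. A further alternative start, 29.5 kb downstream, had pileups of 115, 112 and 113 and of 122, 149 and 18. The main start of TGFBI was therefore without a peak in 5 of 6 libraries while 2 starts in the 3′ part of the gene had a peak in all 6.

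**Figure D2:**
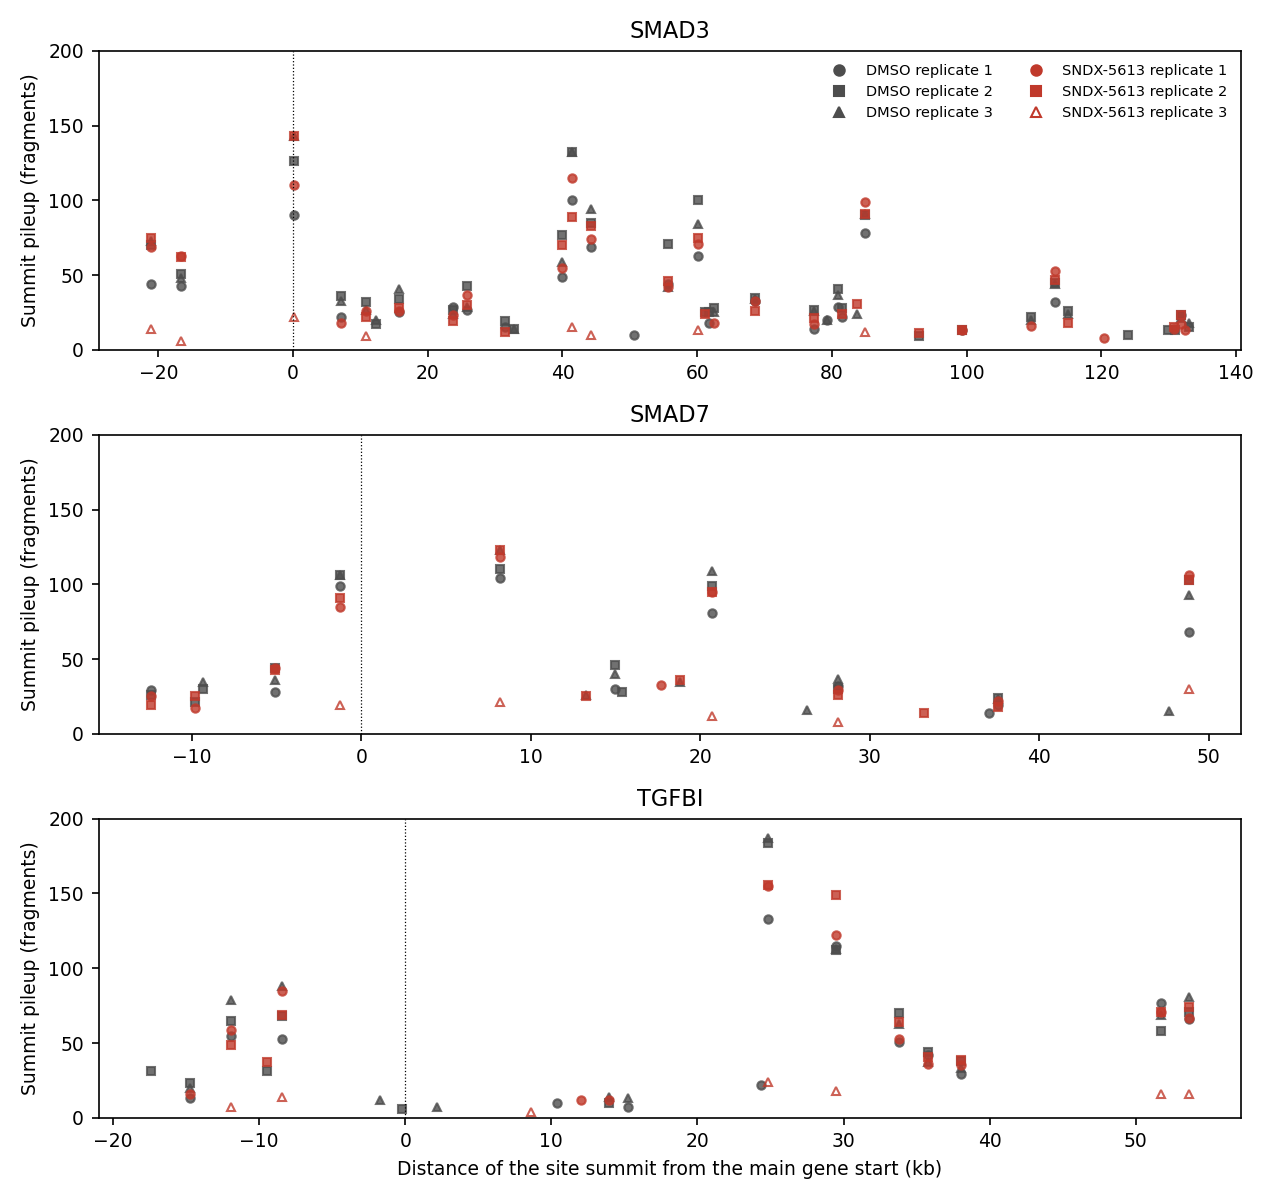
Summit pileup in fragments against distance from the main start in kb for SMAD3, SMAD7 and TGFBI, with 1 point for each library that had a peak (grey, DMSO; red, SNDX-5613; open triangles, the shallow SNDX-5613 replicate 3). TGFBI has its highest pileups, 133 to 187 under DMSO, 24.8 kb downstream of a main start with hardly any peak. The SMAD3 intronic site at 41.5 kb has DMSO pileups in the range of the SMAD3 promoter.

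To compare the groups, the peak strength of each site was expressed as its percentile by −log10 p within each library, among the 33405 sites that had a peak in every library. A percentile places a site among the others of its library, so that a change shared by all sites would not show. The strongest promoter sites of the 9 genes had DMSO means from 57.9 (SMAD7) to 79.97 (TGFBR1). For each gene the difference was tested by a two-sided exact permutation test over the 3 and 3 libraries, for which the smallest possible p is 0.1, and by limma over all 33405 sites.

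Among the ligand and receptor genes, TGFB1 and TGFBR2 had group values that did not overlap. The TGFB1 promoter was at percentiles 75.9, 77.0 and 74.3 under DMSO and 74.0, 67.6 and 57.3 under SNDX-5613. The SNDX-5613 values all lay below the DMSO values, the lowest of them in the shallow library, with means of 66.3 ± 8.42 and 75.7 ± 1.36 (SD, n = 3 each, exact permutation p = 0.1). The limma difference on the normal-score scale, on which a step of 1 takes a site from the median to percentile 84.1, was −0.27 ± 0.17 (SE, adjusted p = 0.624). The difference in mean percentile was −9.43, which shrank to −2.77 without SNDX-5613 replicate 3, where the percentile is taken over the sites of the 5 deeper libraries, and turned to 0.670 when sites were ranked by fold. The TGFBR2 promoter was at 77.3, 69.7 and 74.7 under DMSO and 82.8, 77.4 and 82.7 under SNDX-5613. All 3 SNDX-5613 values were above the DMSO values, with means of 81.0 ± 3.07 and 73.9 ± 3.85 (SD, n = 3 each, exact permutation p = 0.1), and limma gave 0.24 ± 0.15 (SE, adjusted p = 0.638). Its difference of 7.08 was 3.52 without the shallow library. When sites were ranked by fold it was 11.5 and the groups overlapped (exact permutation p = 0.3). At TGFBR1 the means were 79.97 ± 3.65 under DMSO and 82.0 ± 2.28 under SNDX-5613 (SD, n = 3 each, exact permutation p = 0.6), and the values overlapped.

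The promoters of the signal-carrying SMADs overlapped between the groups. SMAD3 was at 58.2, 59.96 and 68.1 under DMSO and 61.5, 73.8 and 71.7 under SNDX-5613 (exact permutation p = 0.2). The means of SMAD4 were 73.2 ± 3.43 and 76.8 ± 2.43 (SD, n = 3 each, exact permutation p = 0.2), and those of SMAD2 74.9 ± 4.199 and 71.7 ± 7.40 (exact permutation p = 0.6). Of the inhibitors, SMAD7 had means of 57.9 ± 6.68 under DMSO and 63.6 ± 0.957 under SNDX-5613 (exact permutation p = 0.2) and SKIL 62.1 ± 7.45 and 60.5 ± 4.66 (exact permutation p = 0.6). The internal TGFBI promoter was at 73.4, 76.7 and 78.9 under DMSO and 72.6, 69.7 and 66.1 under SNDX-5613. These values did not overlap, with all 3 SNDX-5613 libraries lower (exact permutation p = 0.1), and limma gave −0.21 ± 0.15 (SE, adjusted p = 0.674). The difference of −6.82 was −2.88 without the shallow library. It was −5.66 when sites were ranked by fold (exact permutation p = 0.6) and −2.39 by summit pileup (exact permutation p = 0.2). In both of these rankings the groups overlapped.

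None of the 9 promoters passed the limma threshold, and the adjusted p-values ran from 0.624 at TGFB1 to 0.947 at SKIL. The 95% intervals of the differences on the normal-score scale reached from −0.64 at TGFB1 to 0.58 at TGFBR2 and all included 0. The values do not show that the promoters stayed the same.

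**Figure D3:**
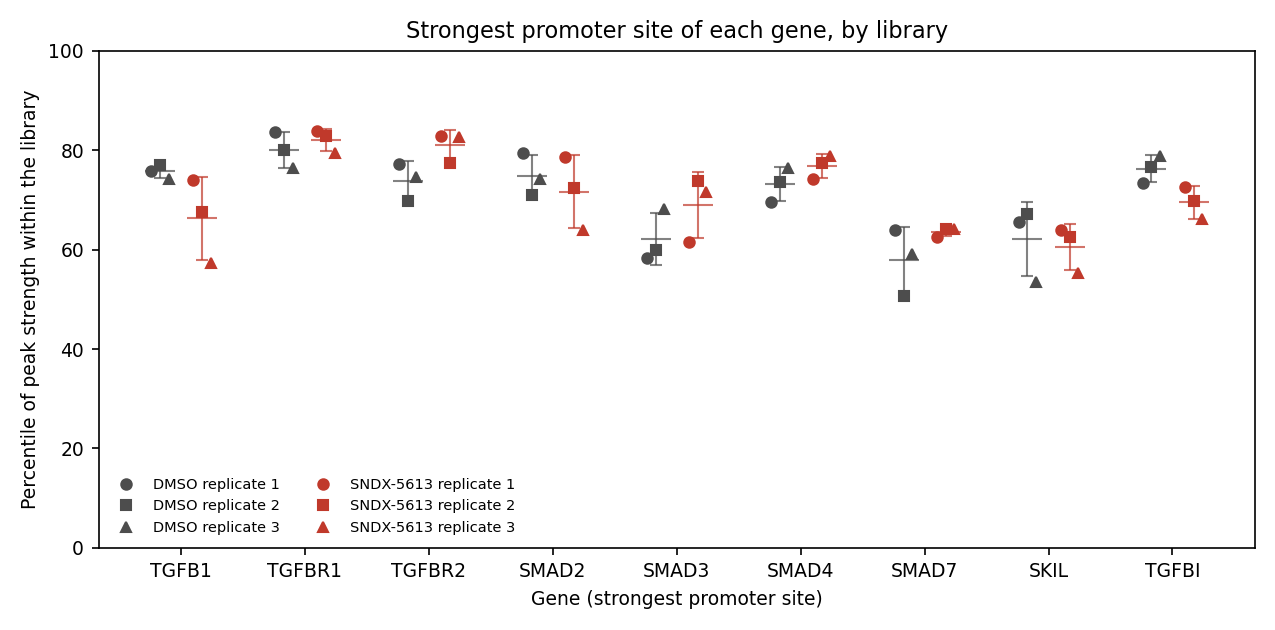
Percentile of the strongest promoter site of each gene in each library (grey, DMSO; red, SNDX-5613), with the group mean and SD as a bar. TGFBR2 has all 3 SNDX-5613 points above the DMSO points, TGFB1 and TGFBI have all 3 below, and the other 6 genes overlap.

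Over all sites, limma called 65 of 33405 (0.195%) at an adjusted p under 0.05, of which 59 were higher and 6 lower under SNDX-5613. This count was not stable: with the replicate number as a block, which pairs same-numbered libraries, it was 3 (3 higher, 0 lower), without any 1 library 0 to 3, by fold 0, and with array weights 256 (198 higher, 58 lower). Of the 35 pathway sites with a peak in all 6 libraries it called 0, with the block also 0. At an unadjusted p under 0.05 there was 1 pathway site of 35, against 9.94% of all sites. The median difference of the 35 sites was 0.08, against −0.01 over all sites, with 19 above and 16 below 0. The smallest difference that passed over all sites was 0.98 in size, and the pathway differences ran from −0.82 to 0.73. All 3 SNDX-5613 percentiles lay above the DMSO percentiles at 2 of the 35 sites (5.71%, against 8.54% of all sites) and below them at 3 (8.57%, against 8.08%). These shares were near those of the whole series, and the 5 sites were the 3 promoters above, a site upstream of TGFBI and a site downstream of SMAD7.

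The site with the lowest p lay 11.9 kb upstream of TGFBI (chr5:136016969-136017457). Its percentiles were 29.1, 21.2 and 32.6 under DMSO and 19.5, 9.16 and 1.86 under SNDX-5613. The groups did not overlap, and the shallow library was lowest. The limma difference was −0.82 ± 0.28 (SE, 95% interval −1.46 to −0.19, unadjusted p = 0.0168, adjusted p = 0.388), and without SNDX-5613 replicate 3 it was −0.41 ± 0.18 (SE, adjusted p = 0.479).

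The next in order of p was the SMAD3 intronic site at 41.5 kb, with percentiles of 53.9, 52.4 and 55.6 under DMSO and 52.5, 31.3 and 30.2 under SNDX-5613 (limma difference −0.41 ± 0.19 SE, adjusted p = 0.510), and the difference was −0.24 ± 0.17 (SE, adjusted p = 0.664) without the shallow library. SNDX-5613 replicate 1 was within the DMSO range and the other 2 were lower. A weak intronic site 13.7 kb into TGFB1 was at 3.88, 2.89 and 6.22 under DMSO and 5.12, 10.3 and 46.0 under SNDX-5613 (0.73 ± 0.34 SE, adjusted p = 0.521), where the shallow library stood far above the other 5 and the difference without it was 0.38 ± 0.19 (SE, adjusted p = 0.521). The site 48.8 kb downstream of the SMAD7 start (chr18:48901802-48902698), beyond the end of the gene, was at 53.8, 61.3 and 57.1 under DMSO and 66.6, 65.0 and 89.7 under SNDX-5613. All 3 SNDX-5613 values were higher, with a limma difference of 0.51 ± 0.24 (SE, adjusted p = 0.522), which was 0.18 ± 0.13 (SE, adjusted p = 0.685) without the shallow library. The fifth, 21.1 kb upstream of the main SMAD3 start, was at 17.4, 26.7 and 29.5 and at 28.8, 34.0 and 47.1 (0.35 ± 0.19 SE, adjusted p = 0.570, and 0.23 ± 0.17 SE without the shallow library), and its groups overlapped.

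**Figure D4:**
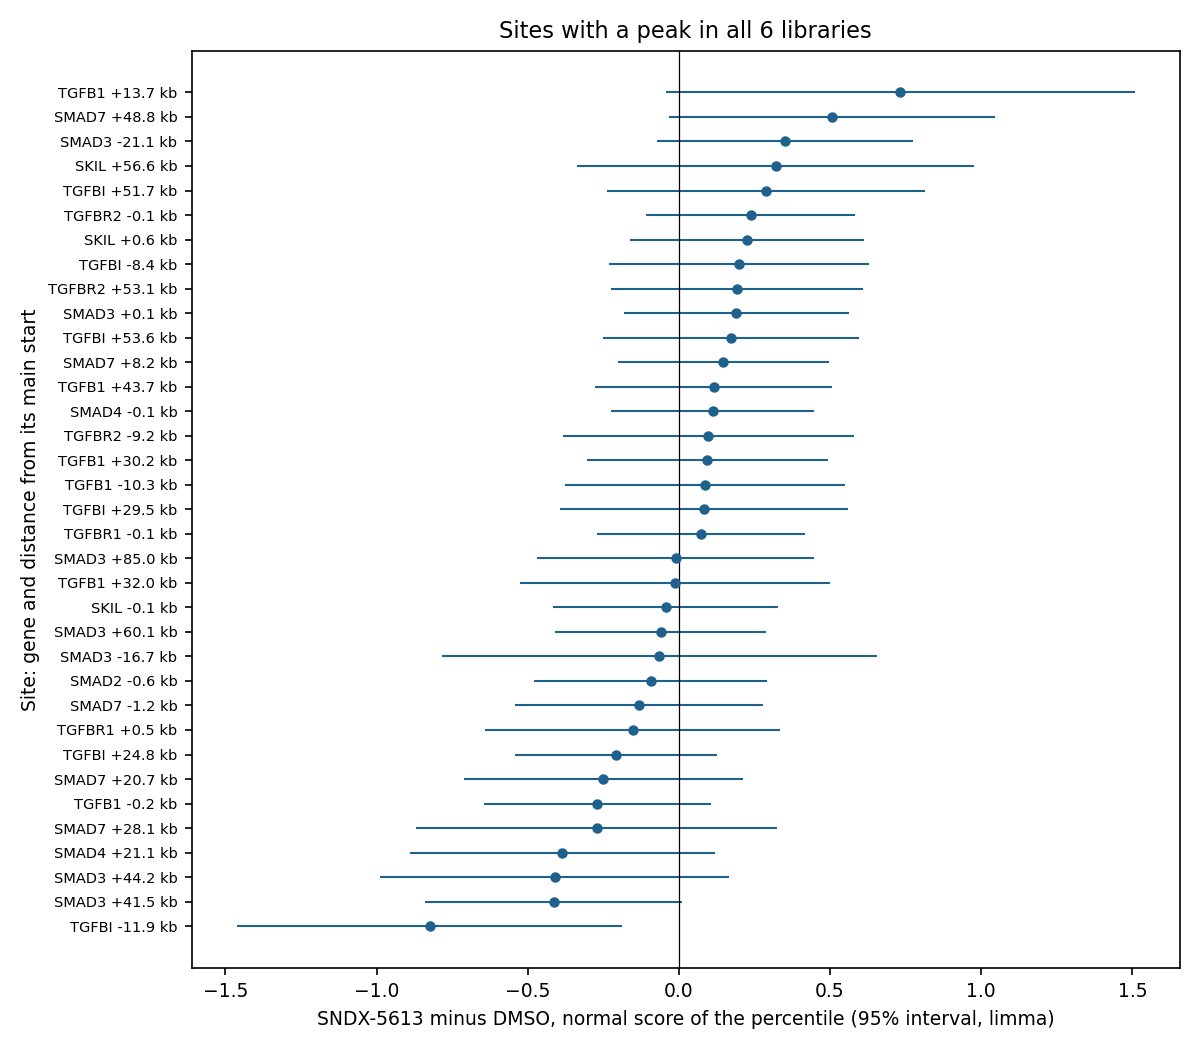
Difference between SNDX-5613 and DMSO at the 35 pathway sites with a peak in all 6 libraries, as the limma estimate on the normal-score scale with its 95% interval, labelled by gene and distance from the main start. Only the interval of the site 11.9 kb upstream of TGFBI leaves out 0, and its adjusted p is 0.388.

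With the 5 deeper libraries alone, 60 of the 126 sites could be compared, and limma called 0 of them and 0 of all 59986 sites at an adjusted p under 0.05. At an unadjusted p under 0.05 there were 3 pathway sites of 60 (5%), against 11.4% of all sites. They were a site 38.1 kb into SMAD4 (−0.55 ± 0.17 SE, adjusted p = 0.309), a site 5.11 kb upstream of SMAD7 (0.61 ± 0.21 SE, adjusted p = 0.357) and a site 16.7 kb upstream of SMAD3 (0.38 ± 0.14 SE, adjusted p = 0.394). The SMAD3 site had the opposite sign in the fit of all 6 libraries (−0.06 ± 0.32 SE). The percentiles of both SNDX-5613 libraries lay above the DMSO range at 9 sites (15%, against 14.3%) and below it at 11 (18.3%, against 14.4%). As in the fit of 6 libraries, the pathway sites were close to the background in both directions. Those below were on the main TGFB1 promoter, the internal TGFBI promoter and the site 1.23 kb upstream of SMAD7, among others, and those above included the TGFBR2 promoter and the site upstream of TGFB1 that lies at B9D2 and TMEM91.

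Presence of peaks was compared next. No pathway site had a peak in all 3 SNDX-5613 and in no DMSO library, a pattern held by 0.147% of all sites. The opposite pattern was held by 2 of 126 pathway sites (1.59%, against 1.18% of all sites), both intronic. The site 80.9 kb into SMAD3 (chr15:67146353-67146536) had pileups of 29, 41 and 37 in the DMSO libraries, at percentiles 26.9, 45.2 and 30.7 of their own peak lists, and no peak in any SNDX-5613 library. It lay within 1 kb of the start of a gene given only by its identifier, ENSG00000259202. The site 15.0 kb into SMAD7 had pileups of 30, 46 and 40, at percentiles 26.2, 49.6 and 33.4, and again no peak under SNDX-5613. Neither was among the top 40568 regions of any DMSO library, and no site was lost when each library was held to that number. In the 5 deeper libraries the same 2 sites were the only ones with a peak in every DMSO library and in neither SNDX-5613 library (1.59%, against 1.21% of all sites). The reverse was seen at 1 site (0.794%, against 2.39%), 131 kb downstream of the main SMAD3 start and beyond the gene (chr15:67196137-67196449), with pileups of 14 and 15 in SNDX-5613 replicates 1 and 2.

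The number of pathway sites with a peak was lowest in the shallow library. It was 77, 98 and 87 under DMSO and 80, 83 and 39 under SNDX-5613, means of 87.3 ± 10.5 and 67.3 ± 24.6 (SD, n = 3 each, exact permutation p = 0.3). With the same number of regions in every library, it was 38, 41 and 37 and 38, 38 and 39, means of 38.7 ± 2.08 and 38.3 ± 0.577 (exact permutation p = 1.0), so that the difference of −20.0 sites became −0.33. Without SNDX-5613 replicate 3, the difference among all called regions was −5.83 sites. SMAD3 was the gene with the widest range, 24, 34 and 27 sites under DMSO, 24 and 25 in the deeper SNDX-5613 libraries and 8 in the shallow one. In the consensus sets, which join the libraries of a group, 78 pathway sites overlapped both sets, 9 that of DMSO alone, 2 that of SNDX-5613 alone and 37 neither. The same shares over all sites were not counted, so these numbers are no comparison of the groups. Membership also did not always follow the peaks of single libraries. A SMAD7 site 17.7 kb downstream of the main start overlapped the DMSO set alone but had a peak only in SNDX-5613 replicate 1.

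**Figure D5:**
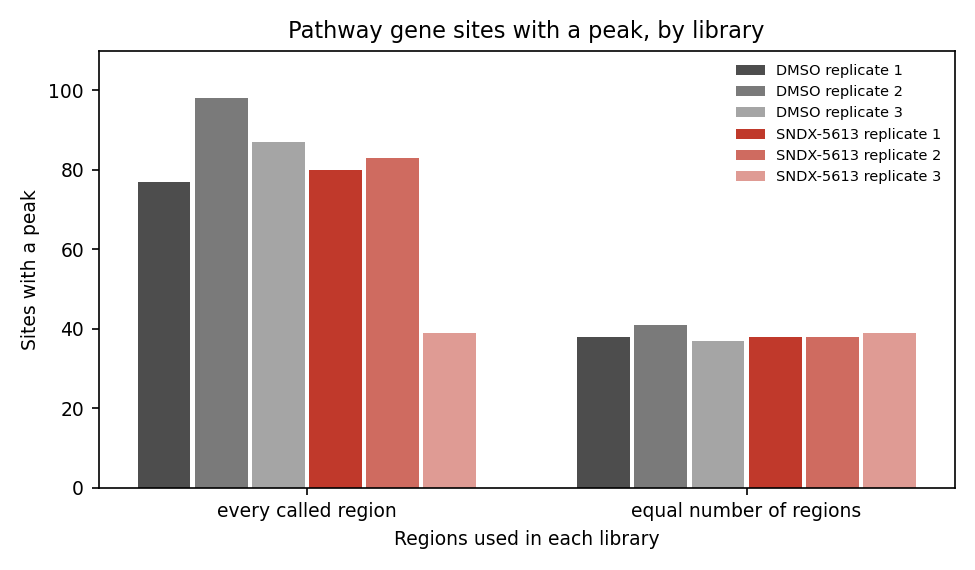
Number of pathway sites with a peak in each library (grey shades, DMSO; red shades, SNDX-5613), with every called region and with an equal number of regions per library. The shallow SNDX-5613 replicate 3 drops to 39 sites with every region, and the 6 libraries range from 37 to 41 when the number is equal.

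The other genes of the pathway were taken from a list of 39 ligands, receptors, SMADs, repressors and targets. A promoter region was present in all 6 libraries at 36 of them, among them 10 of 10 targets, 8 of 8 repressors and turnover factors and 8 of 9 further receptors and co-receptors. Limma called 0 of the 36 strongest promoter sites in either direction, and 3 had an unadjusted p under 0.05 (adjusted p 0.403 to 0.4999). This was 8.33% of the 36, below the 9.94% of all sites, so that the count is no more than the background. The 3 are named here after their values were seen. All were higher under SNDX-5613, and their groups did not overlap. TAGLN, a smooth muscle actin-binding protein induced by TGF-β, was at 43.3, 50.7 and 52.0 under DMSO and 64.8, 61.7 and 69.6 under SNDX-5613 (limma difference 0.43 ± 0.15 SE, adjusted p = 0.403). CCN2, the matricellular connective tissue growth factor, was at 54.7, 57.4 and 56.2 and at 69.8, 67.2 and 77.2 (0.42 ± 0.15 SE, adjusted p = 0.422). USP15, a deubiquitinase that acts on the type I receptor complex, was at 85.4, 92.0 and 94.1 and at 95.6, 96.6 and 95.4 (0.40 ± 0.17 SE, adjusted p = 0.4999). Of the 36 promoters, 5 had all SNDX-5613 values above the DMSO values, a larger share than the 8.54% of all sites. Only 1 had them below, a smaller share than the 8.08% of all sites. This was SMURF1, a ubiquitin ligase that SMAD7 recruits to the receptor. The shares of all sites are over 33405 sites, of which 14694 lay at a promoter, and were not counted over promoters alone.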

How the data were processed

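ATAC-seq libraries of HLF cells (3 DMSO, 3 SNDX-5613) were grouped by their labels. Per the submitters' processing notes, reads were trimmed with Trim Galore 0.6.7 and aligned with Bowtie2 2.3.4.1, with Picard 2.20.0, SAMtools, deepTools 3.5.4 and MACS2 also named. Whether reads were shifted for Tn5 was not given in the sources used here. The study's methods do not say whether paired fragments or extended single reads were stacked in peak calling, and pileups are given here as fragments. Peaks were called per library. The deposited lists give each summit's fold enrichment (a ratio of pileup to local background) and its −log10 p and −log10 q, computed by the authors. The authors also deposited a consensus set per group with combined −log10 p values that were left aside here. The authors' read counts were not used here, so that the count model of the study was not fitted.

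Coordinates are hg38, and 0 summits lay past a chromosome end. Sites were formed by joining regions that shared 1 bp or more between libraries, on chromosomes 1 to 22, X and Y. MACS2 fold and p were solved for a whole-number pileup, found for 100% of summits (tolerance 0.01) against 2.10% to 2.81% with p shuffled. Limma 3.58.1 in R 4.3.3 was fitted to normal scores of the percentiles over all sites, with Benjamini-Hochberg adjustment and a threshold of 0.05, and was checked on simulated data. Named were the 9 genes, their strongest promoter sites, the 3 strongest sites outside promoters, the 5 sites of lowest p when none passed, and all gained or lost sites, and further sites were named after their values were seen. The genes, lists and tests were chosen with earlier results of these data known. The study states that each replicate was a dish split between the groups, so that same-numbered libraries may be paired, and a replicate block was fitted beside the unblocked model. The deviations of same-numbered libraries from their group means had correlations of 0.0005, 0.0070 and 0.0164. Alternatives were ranking by fold, −log10 q of at least 3, equal numbers of regions, 50% cover, a 10 kb flank, a replicate block, array weights and leaving out each library. Ranking by pileup was added after seeing the data. The sequence of 1 SMAD7 site is not reported here.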

Additional observations from a re-analysis of the deposited data

How the results depend on the processing

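No alternative gave a limma call at a pathway site, and at most 4 of them had an unadjusted p under 0.05. Over all sites the count of 65 calls became 0 when ranked by fold, 255 by summit pileup, 17 with equal numbers of regions, 14 with 50% cover, 256 with array weights, 3 with a replicate block and 0 to 3 without single libraries, so it depended on each of the 6. The replicate block, which pairs same-numbered libraries, changed no call at a pathway site (2 of 35 at an unadjusted p under 0.05). The exact tests did not use this pairing. Pathway sites whose groups did not overlap numbered 5 of 35, against 3 of 35 by fold, 2 of 13 with 50% cover and 3 of 27 with a 10 kb flank. By summit pileup there were again 5, but 4 higher and 1 lower in place of 2 and 3. Without single libraries, where fewer libraries overlap less often by construction, they numbered 7 to 13 of 35 to 37. Without SNDX-5613 replicate 3 they numbered 20 of 60, with 9 above (15%, against 14.3% of all sites) and 11 below (18.3%, against 14.4%). Under the other alternatives the shares over all sites were not counted, so those counts are no result about the pathway sites. Lost sites numbered 0 of 55 with equal numbers of regions and 2 to 6 of 126 without single libraries (6 without DMSO replicate 1, 5 without SNDX-5613 replicate 1, 4 without DMSO replicate 2), gained sites 0 to 1 (1 without SNDX-5613 replicate 3). Leaving out a library loosens the rule for every site. Without SNDX-5613 replicate 3 the lost sites were 1.59% of the 126, against 1.21% of all sites. The gained site was 0.794%, against 2.39%. For the other alternatives the share over all sites was not counted, so their counts are no result about the pathway sites. The difference in sites per library stayed negative, from −27.8 to −5.83 without single libraries. Of 90 alternative promoter differences 82 kept their sign. By fold, TGFB1 turned to 0.670, SMAD2 to 6.81 and SKIL to 3.64 percentile points, and by pileup SKIL to 1.21. Without single libraries SMAD2 ranged from −6.71 to 0.387 (positive without SNDX-5613 replicate 3) and SKIL from −5.85 to 0.918 (positive without DMSO replicate 1 or 2 or SNDX-5613 replicate 3). The cause of these changes was not tested. Weak sites could not be compared in SNDX-5613 replicate 3, which was the limit of depth.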
